A study of Mus musculus with 8 samples.

Results

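The genes described here were 10 genes of the transforming growth factor beta (TGF-β) and bone morphogenetic protein (BMP) pathways, of 20125 genes that carried a name on the array. They were the ligands Tgfb1 and Bmp7, the receptors Tgfbr1, Tgfbr2 and Bmpr1a, the signal transducers Smad3 and Smad7, and the pathway targets Tgfbi, Id1 and Id3. All array probes whose transcript accession belongs to these symbols were taken, which gave 13 probes, of 39378 analysed. The genes were chosen by their role in the pathway and with measured values of all 3 comparisons below in view, so their levels and differences are given as a description, without p-values.

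Transcript levels were measured in Ebf1-deficient mouse pro-B cells, which lack the transcription factor that commits cells to the B lineage, on 8 one-colour arrays in 4 groups of 2. Both parental lines were derived from lineage-depleted fetal liver progenitors of male and female Ebf1-deficient embryos and grown with stem cell factor, Flt3 ligand and interleukin-7. The line with potential for the T lineage, pro-B(+), was maintained on OP9 stromal cells, and the line without it, pro-B(−), on TD7, a stromal line from fetal thymus. The pro-B(−) line was also transduced with an empty lentiviral vector, pro-B(−)/Mock, or with one that encodes Lmo2, pro-B(−)/LMO2, both of which carry rat CD2 as a marker. LMO2 is an adaptor that joins transcription factors of blood progenitors in 1 complex. Each group stands for a single line, and the parental lines differed in their stromal cells as well as in their potential. The sources used here do not give the stromal cells of the transductants or whether their replicates were separate cultures, so p-values for them measure only the spread between these arrays, which may be technical. The fit pools the spread over all 8 arrays, so p-values for the parental lines rest in part on the same transductant arrays.

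TGF-β ligands bind a complex of TGFBR2 and TGFBR1, which phosphorylates SMAD2 and SMAD3, whereas BMP ligands bind receptors such as BMPR1A, which phosphorylate SMAD1, SMAD5 and SMAD9. Both kinds of SMAD join SMAD4 and enter the nucleus, and the inhibitory SMADs, SMAD7 and SMAD6, are induced by the pathway and limit it. The ID genes are well known targets of BMP signals, and their proteins bind E proteins, transcription factors that early B and T cells need, and keep them from DNA.

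Of the probes on an array, 56.5% to 61.3% gave a signal well above background, and replicate arrays correlated at r = 0.999. Values are log2 of the processed intensity minus log2 of the array's 75th percentile, here called normalized log2 signal, so that 0 lies at the upper quartile of the array. Lmo2 had a normalized log2 signal of 2.09 and 2.10 in pro-B(+), 0.63 on both pro-B(−) arrays, 0.35 on both Mock arrays, and 0.99 and 0.93 in pro-B(−)/LMO2, the order that the labels give for the vector. The progenitor genes Ptprc, Il7r and Flt3 were well above background on every array. The parental lines were hybridised on 1 slide and the transductants on another, and therefore the effects of slide and of group cannot be told apart in pro-B(−)/Mock against pro-B(−) or in any level set across the slides.

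The 3 targets and the BMP receptor set pro-B(+) apart from pro-B(−). Tgfbi was 102-fold higher in pro-B(+), Id1 was 8.95-fold higher, Id3 was 7.66-fold higher, and Bmpr1a exceeded its pro-B(−) level at least 2.56-fold. With Lmo2, Bmp7 was 25.5-fold below pro-B(−)/Mock in pro-B(−)/LMO2, whereas Smad7, Tgfbr2, Smad3, Id1 and Tgfb1 were 1.71- to 1.89-fold higher. Tgfbi was 1.26-fold lower with Lmo2, a small step beside its difference between the parental lines.

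**Figure D1:**
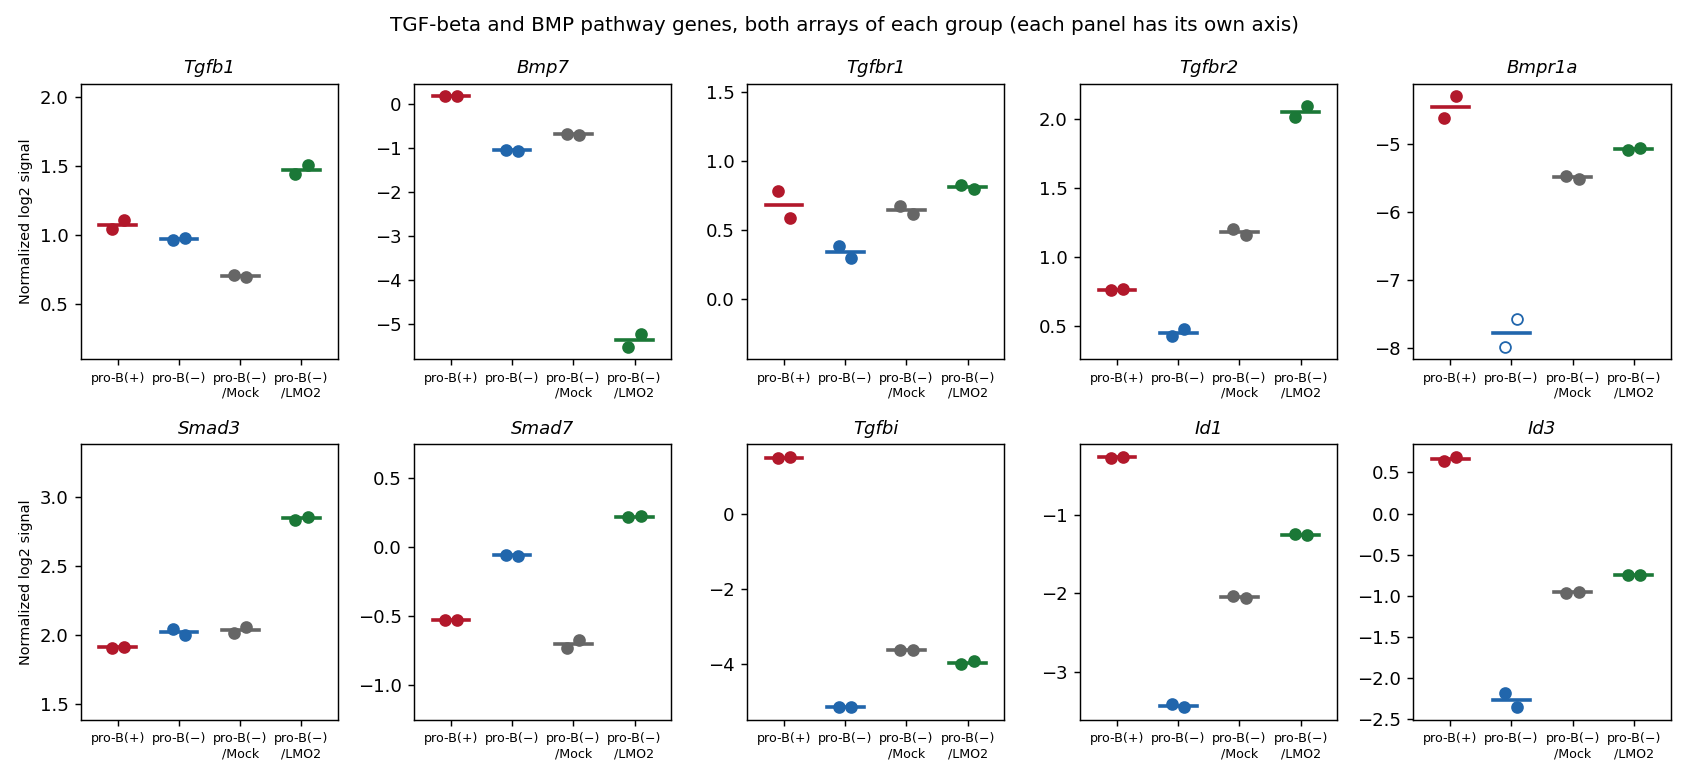
Normalized log2 signal (y axis, a separate range for each gene) of the brightest probe of each of the 10 pathway genes in the 4 groups (x axis). Points are the arrays, 2 a group, lines are group means, and open points mark groups in which not both arrays were well above background. Tgfbi, Id1, Id3, Bmp7 and Bmpr1a were highest in pro-B(+), and Tgfb1, Tgfbr1, Tgfbr2, Smad3 and Smad7 were highest in pro-B(−)/LMO2.

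A call here is a Benjamini-Hochberg adjusted p under 0.05 from limma over all probes tested. In pro-B(+) against pro-B(−), 9 of the 10 genes were called, 7 higher and 2 lower, where 48.6% of all probes tested were called, 20.6% higher and 28.0% lower. In pro-B(−)/LMO2 against pro-B(−)/Mock, 8 of the 10 were called, 6 higher and 2 lower, beside 64.0% of all probes, 28.0% higher and 36.0% lower. In pro-B(−)/Mock against pro-B(−), 9 of the 10 were called, 7 higher and 2 lower, beside 58.1% of all probes, 27.9% higher and 30.2% lower. Since these comparisons were in view when the genes were chosen, nothing is read from the counts. The median log2 difference of the 10 genes was 0.79, 0.59 and 0.55 in the 3 comparisons, and that of all probes tested was -0.04, -0.04 and -0.01. With each array scaled to its median in place of its 75th percentile, the median of all probes moved to -0.33 in the first comparison and -0.25 in the second, and the share of calls that were higher moved from 42.4% to 15.8% and from 43.7% to 24.5%.

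RefSeq promoter windows on GRCm38.p6, 250 bases before to 50 after a gene's start, were held for 7 of the 10 genes. The windows of Tgfbi, Id3 and Bmpr1a are shown, since these genes, with Id1, had the 4 largest fitted differences between the parental lines, and no window was held for Id1. Each is written 5′ to 3′ along the gene's own strand, and capitals mark the short SMAD-binding letters GTCT, read as AGAC on the other strand, and the GC-rich letters GGCGCC.
Id3, chr4:136143572-136143871, plus strand: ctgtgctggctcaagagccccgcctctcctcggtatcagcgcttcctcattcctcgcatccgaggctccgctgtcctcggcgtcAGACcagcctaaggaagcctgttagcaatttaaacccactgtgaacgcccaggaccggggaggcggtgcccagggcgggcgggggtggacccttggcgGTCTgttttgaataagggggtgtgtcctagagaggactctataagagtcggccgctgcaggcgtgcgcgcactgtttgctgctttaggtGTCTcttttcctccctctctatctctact
Tgfbi, chr13:56609336-56609635, plus strand: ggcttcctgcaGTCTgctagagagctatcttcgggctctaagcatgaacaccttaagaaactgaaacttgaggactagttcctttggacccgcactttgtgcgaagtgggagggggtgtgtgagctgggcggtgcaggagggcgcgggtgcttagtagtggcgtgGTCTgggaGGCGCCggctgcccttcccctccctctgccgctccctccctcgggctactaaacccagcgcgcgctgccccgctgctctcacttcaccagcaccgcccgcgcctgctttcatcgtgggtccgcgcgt
Bmpr1a, chr14:34502497-34502796, minus strand: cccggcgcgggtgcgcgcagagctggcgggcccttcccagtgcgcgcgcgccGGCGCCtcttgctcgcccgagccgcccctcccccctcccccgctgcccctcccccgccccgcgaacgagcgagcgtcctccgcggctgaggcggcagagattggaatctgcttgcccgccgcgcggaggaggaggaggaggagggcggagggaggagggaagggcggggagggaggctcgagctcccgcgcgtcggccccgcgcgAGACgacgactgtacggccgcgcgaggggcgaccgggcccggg
GTCT was found 3 times in the Id3 window, 2 times in the Tgfbi window and 1 time in the Bmpr1a window, and 88.0% of all 32851 promoter windows held it at least 1 time on either strand. GGCGCC was found 1 time each in the Tgfbi and Bmpr1a windows and not in the Id3 window, and 11.9% of all windows held it. The E-box letters CANNTG, to which E proteins bind, were in none of these 3 windows and in 72.3% of all windows. Of the 8 windows held for the 7 genes, 2 had CANNTG, that of Tgfbr2 and 1 of the 2 windows of Tgfbr1. GATA, the letters of the GATA factors that work with LMO2, was found 2 times in the Id3 window and 1 time in the Tgfbi window, with 57.9% of all windows holding it. A match is a description of the letters and not a bound site.

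Among the ligands, Tgfb1, the TGF-β made by most blood cells, differed little between the parental lines. Its normalized log2 signal was 1.04 and 1.10 in pro-B(+), 0.96 and 0.98 in pro-B(−), 0.71 and 0.69 in pro-B(−)/Mock, and 1.44 and 1.50 in pro-B(−)/LMO2. The groups did not overlap, and the order ran from pro-B(−)/LMO2 down to pro-B(−)/Mock. The log2 difference was 0.77 (SE 0.04) between the transductants, 1.71-fold, and -0.27 between pro-B(−)/Mock and pro-B(−). Between the parental lines it was 0.10, not called, and turned to -0.18, called lower, with median scaling.

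Bmp7, a ligand of the BMP branch, showed the widest gap between the transductants among these genes. It stood at 0.17 on both pro-B(+) arrays, at -1.06 and -1.07 in pro-B(−), at -0.70 and -0.71 in pro-B(−)/Mock, and at -5.52 and -5.23 in pro-B(−)/LMO2. Both pro-B(−)/LMO2 arrays lay far below all other arrays, although still well above background. The log2 difference of pro-B(−)/LMO2 from pro-B(−)/Mock was -4.67 (SE 0.09), 25.5-fold lower, and it was -2.51 with normexp background correction. Pro-B(+) was 2.34-fold higher than pro-B(−), a log2 difference of 1.23. The log2 difference of pro-B(−)/Mock from pro-B(−) was 0.36, and its call was lost without any 1 of the 4 arrays compared.

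Among the receptors, Tgfbr2, the type II receptor that binds TGF-β first, stepped up across the groups by its brighter probe. Its normalized log2 signal was 0.43 and 0.48 in pro-B(−), 0.76 and 0.77 in pro-B(+), 1.20 and 1.16 in pro-B(−)/Mock, and 2.02 and 2.09 in pro-B(−)/LMO2. No groups overlapped, with pro-B(−)/LMO2 highest and pro-B(−) lowest. The log2 difference was 0.88 (SE 0.04) between the transductants, 1.83-fold, and 0.73 between pro-B(−)/Mock and pro-B(−). Between the parental lines it was 0.31, and only 0.03 and not called with median scaling. The dimmer Tgfbr2 probe gave log2 differences of the same sign, 0.31, 0.62 and 0.23 in the 3 comparisons. By that probe pro-B(+), at -3.22 and -3.23, lay above pro-B(−)/Mock, at -3.29 and -3.31.

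Tgfbr1, the type I receptor that carries the kinase signal to SMAD2 and SMAD3, varied less, and its probes disagreed. The brighter probe gave 0.78 and 0.59 in pro-B(+), 0.38 and 0.30 in pro-B(−), 0.67 and 0.62 in pro-B(−)/Mock, and 0.83 and 0.80 in pro-B(−)/LMO2. Pro-B(−) was lowest, and pro-B(+) overlapped with pro-B(−)/Mock. By this probe the log2 difference was 0.34 (SE 0.07) between the parental lines, called, although not without the pro-B(−) array of replicate 2, nor with median scaling, where it was 0.06. Between the transductants it was 0.17, not called, and turned to -0.04 with median scaling. By the dimmer probe the difference was 0.12 between the parental lines, not called, and 0.47 between the transductants, called higher. For pro-B(−)/Mock against pro-B(−) the 2 probes pointed opposite ways, at 0.31 and -0.46.

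Bmpr1a, a type I receptor of the BMP branch, was dim in all groups. Its normalized log2 signal was -4.61 and -4.29 in pro-B(+), -5.46 and -5.50 in pro-B(−)/Mock, and -5.09 and -5.05 in pro-B(−)/LMO2, whereas on both pro-B(−) arrays, at -7.98 and -7.57, it was not well above background. Pro-B(+) was highest, and no groups overlapped. Pro-B(+) exceeded pro-B(−) at least 2.56-fold, and pro-B(−)/Mock did so at least 1.25-fold. These bounds set the brighter group against the dimmest signal that counted as well above background on each array. The measured log2 differences were 3.32 and 2.29, and fell to 0.48 and 0.34 with normexp. Between the transductants the log2 difference was 0.41 (SE 0.16), not called.

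Of the SMADs, Smad3, which carries the TGF-β signal, was by its brighter probe nearly level in 3 groups and higher with Lmo2. It stood at 1.91 on both pro-B(+) arrays, at 2.04 and 2.00 in pro-B(−), at 2.02 and 2.05 in pro-B(−)/Mock, and at 2.83 and 2.86 in pro-B(−)/LMO2. Pro-B(−) and pro-B(−)/Mock overlapped, and both pro-B(−)/LMO2 arrays lay above all others. The log2 difference between the transductants was 0.81 (SE 0.03), 1.75-fold, and the dimmer probe gave 0.84. Between the parental lines it was -0.11, a call that was lost without any 1 of the 8 arrays. For pro-B(−)/Mock against pro-B(−) it was 0.01 by the brighter probe and -0.71 by the dimmer one. By the dimmer probe pro-B(−)/Mock was lowest, at -4.24 and -4.35. Pro-B(−)/LMO2, at -3.53 and -3.38, lay close to pro-B(−), at -3.54 and -3.63.

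Smad7, the inhibitory SMAD that TGF-β itself induces, moved in opposite directions in the first and second comparisons. Its normalized log2 signal was -0.53 on both pro-B(+) arrays, -0.05 and -0.06 in pro-B(−), -0.73 and -0.67 in pro-B(−)/Mock, and 0.22 on both pro-B(−)/LMO2 arrays. The groups did not overlap, and pro-B(−)/LMO2 was highest. Pro-B(+) was below pro-B(−) by a log2 difference of -0.47 (SE 0.03), pro-B(−)/LMO2 was above pro-B(−)/Mock by 0.92, 1.89-fold, and pro-B(−)/Mock was below pro-B(−) by -0.64.

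Among the targets, Tgfbi, an extracellular matrix protein named for its induction by TGF-β, was high in pro-B(+) alone of the 4 groups. It stood at 1.49 and 1.53 in pro-B(+), at -5.16 on both pro-B(−) arrays, at -3.64 and -3.62 in pro-B(−)/Mock, and at -4.00 and -3.94 in pro-B(−)/LMO2. All 8 arrays were well above background, and the 6 arrays other than pro-B(+) lay more than 5 log2 units below it. The log2 difference between the parental lines was 6.67 (SE 0.04), 102-fold, and 4.88 with normexp. It was 1.53 for pro-B(−)/Mock against pro-B(−), 2.89-fold. Between the transductants it was -0.34, called lower, but -0.06 and not called with normexp.

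Id1 and Id3, which encode helix-loop-helix inhibitors of E proteins, held the same order of groups as each other. Id1 had a normalized log2 signal of -0.28 and -0.26 in pro-B(+), -3.41 and -3.45 in pro-B(−), -2.03 and -2.06 in pro-B(−)/Mock, and -1.24 and -1.26 in pro-B(−)/LMO2. Id3 stood at 0.64 and 0.69, at -2.19 and -2.36, at -0.96 and -0.95, and at -0.75 on both arrays, in the same order. For both genes pro-B(+) was highest, pro-B(−) lowest and the transductants between, and no groups overlapped. Between the parental lines the log2 difference was 3.16 (SE 0.03) for Id1, 8.95-fold, and 2.94 (SE 0.06) for Id3, 7.66-fold. For pro-B(−)/Mock against pro-B(−) it was 1.39 for Id1, 2.61-fold, and 1.32 for Id3, 2.49-fold. Between the transductants Id1 was higher by 0.79, 1.73-fold, whereas Id3 was higher by 0.20, 1.15-fold, a difference that turned to -0.0046 and lost its call with median scaling, and lost it without any 1 of the 4 arrays compared. Of the E protein genes Tcf3, Tcf4 and Tcf12, on which these inhibitors act, Tcf4 alone was called by its brightest probe, higher, between the parental lines, by 0.43 (limma adjusted p = 0.0048), and between the transductants, by 0.75 (limma adjusted p = 0.00036), and Tcf3 and Tcf4 were called higher in pro-B(−)/Mock against pro-B(−). The dimmer Tcf3 probe was called lower in all 3 comparisons, by -0.24, -0.22 and -0.25 (limma adjusted p up to 0.00404).

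**Figure D2:**
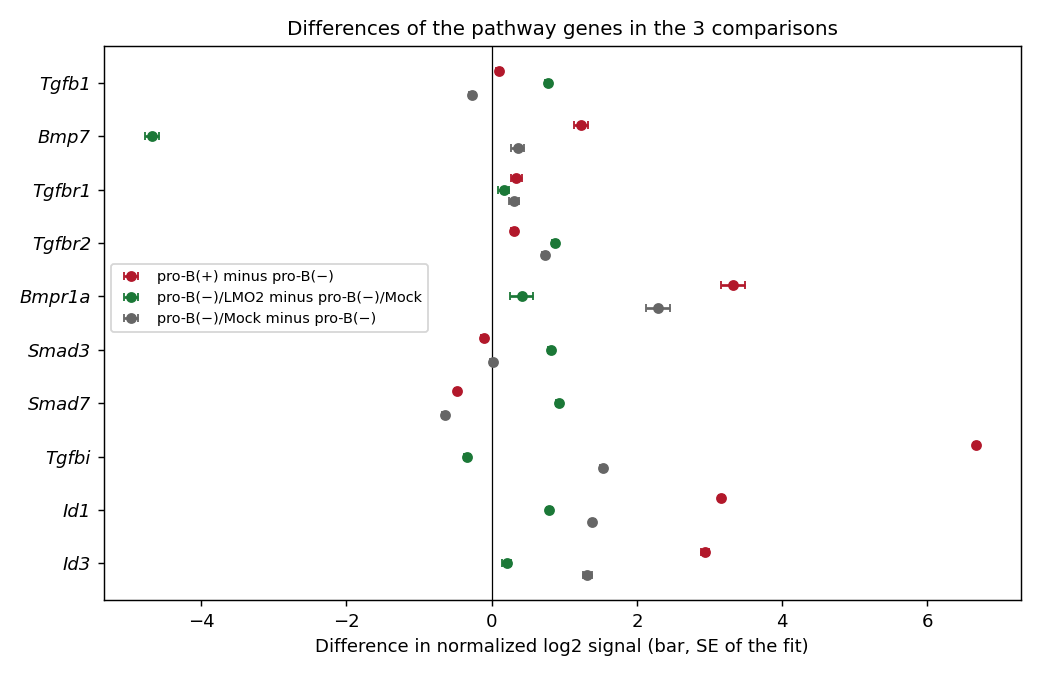
Differences in normalized log2 signal (x axis) of the 10 pathway genes (y axis) in the 3 comparisons, with the SE of the fit as bars. The parental lines differed most in Tgfbi, Bmpr1a, Id1 and Id3, the transductants most in Bmp7, at -4.67, and the point of Bmpr1a against pro-B(−) rests on a group that was not well above background.

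The third comparison shares its pro-B(−) arrays with the first and its pro-B(−)/Mock arrays with the second, and so its values are set beside theirs without a test. Tgfbi, Bmp7, Bmpr1a, Id1, Id3, Tgfbr2 and the brighter Tgfbr1 probe were above pro-B(−) both in pro-B(+) and in pro-B(−)/Mock, by log2 differences of 6.67 and 1.53, 1.23 and 0.36, 3.32 and 2.29, 3.16 and 1.39, 2.94 and 1.32, 0.31 and 0.73, and 0.34 and 0.31. Smad7 was below it in both. The first and second comparisons share no array. Their differences had opposite signs for Tgfbi, Bmp7, Smad3 and Smad7, and had the same sign for Id1, Id3, Tgfb1, Tgfbr1, Tgfbr2 and Bmpr1a, of which Id3, Tgfb1 and Tgfbr1 turned sign in 1 of the comparisons with median scaling.

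The rest of the pathway was followed in a list of 101 other genes, of which 100 had a probe. In pro-B(+) against pro-B(−), 66 were tested and 34 were called (51.5%, beside 48.6% of all probes tested), 24 higher and 10 lower, with a median log2 difference of 0.04. This split depended on the scaling, since with each array scaled to its median 53 were called, 20 higher and 33 lower. Smad6, the inhibitory SMAD of the BMP branch, stood at -4.06 and -4.10 in pro-B(+) and was not well above background in pro-B(−), at least 3.30-fold higher (limma adjusted p = 1.04e-05). Over the other settings its log2 difference ran from 0.81 to 4.14, so the bound depends on the processing. Of the BMP receptors, Acvrl1 was higher by 2.65 (limma adjusted p = 3.03e-06) and Acvr1 by 1.64 (9.79e-05), beside the rise of Bmpr1a above. Id2, the relative of Id1 and Id3, was higher by 0.78 (limma adjusted p = 7.6e-05), and Skil, a SMAD repressor, by 1.28 (3.15e-06). The ligand Gdf15 and, of the latency list, Lrrc32 and Ltbp2 were higher by 2.21, 1.94 and 1.67, and the ligand Inhba, not well above background in pro-B(−), by at least 1.42-fold. The log2 difference of Inhba ran from 0.41 to 2.77 over the other settings. The 6 largest falls were those of Itgav, the integrin chain that activates latent TGF-β (-1.33), Nedd4l (-0.94), Cdkn1a (-0.89), Tdgf1 (-0.57), Smad5 (-0.54) and Furin (-0.53), with limma adjusted p up to 0.0113. The transducers Smad2 and Smad4 differed by -0.05 and -0.06 and the receptors Bmpr2 and Acvr2a by -0.03 and 0.23, none of them called, and Smad1 was called higher by 0.63, at a limma adjusted p of 0.0471 that was lost in 11 of 20 other settings.

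**Figure D3:**
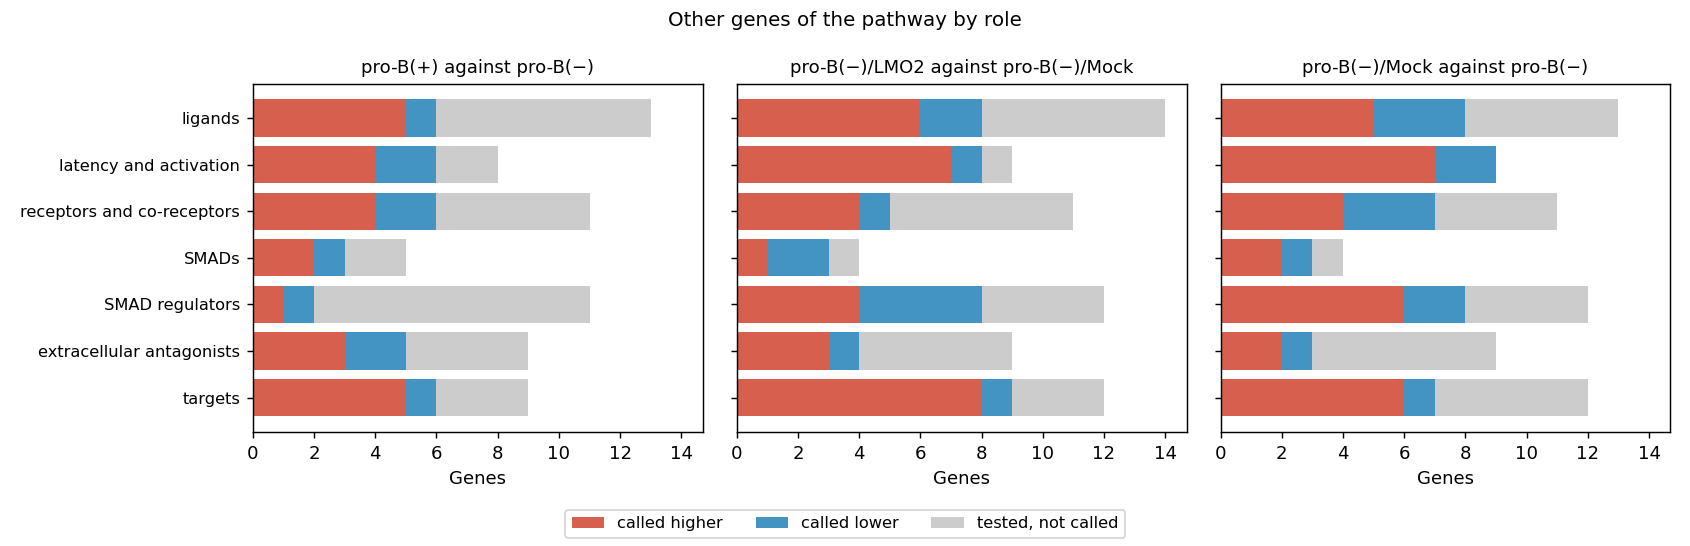
Number of other pathway genes (x axis) by role (y axis) that were called higher, called lower, or tested and not called in each of the 3 comparisons, by limma at an adjusted p under 0.05. Among the targets tested, 5, 8 and 6 were called higher and 1 was called lower in each comparison.

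Between the transductants, 71 of these genes were tested and 45 were called (63.4%, beside 64.0% of all probes tested), 33 higher and 12 lower, with a median log2 difference of 0.21, whereas median scaling gave 44 calls, 26 up and 18 down. Of 9 genes of TGF-β storage and activation tested, 7 were called higher and 1 lower. Of all probes tested, 28.0% were called higher and 36.0% lower. The calls in this list were not particular to this comparison. In pro-B(−)/Mock against pro-B(−), 7 were called higher and 2 lower of 9 tested. Between the parental lines, 4 were called higher and 2 lower of 8 tested. Among the lists by role, the share called between the transductants ran from 44.4% for extracellular antagonists to 88.9% for this list. Lrrc32, which holds latent TGF-β at the cell surface, went from -2.38 and -2.45 in pro-B(−)/Mock to 1.77 on both pro-B(−)/LMO2 arrays, 18.2-fold higher (limma adjusted p = 6.57e-07). Tgfb3, another TGF-β ligand, went from -0.57 and -0.59 to 3.25 and 3.26, 14.3-fold higher (limma adjusted p = 5.97e-07), beside 1.71-fold for Tgfb1. The classic target Ccn2 was higher by 2.96 and Thbs1, an activator of latent TGF-β, by 2.17 (limma adjusted p up to 0.000156 for both). Inhba was at least 3.70-fold higher, although its log2 difference ran from 0.60 to 2.34 over the other settings. Skil and Pmepa1, which like Smad7 limit the signal, were higher by 1.37 (limma adjusted p = 3.02e-06) and 0.98 (0.00423). Id2 was higher by 1.04 (limma adjusted p = 2.44e-05), beside 0.79 for Id1. On the lower side were Tsc22d1 (-0.88), the BMP transducer Smad5 (-0.64), the ubiquitin ligases Nedd4l (-0.62) and Smurf2 (-0.44), Acvr1b (-0.44) and Tgif2 (-0.42), with limma adjusted p up to 0.0219. Smad2 was lower by -0.20 (limma adjusted p = 0.00743), whereas Smad4, Bmpr2 and Ski were not called, at -0.10, -0.05 and 0.33.

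**Figure D4:**
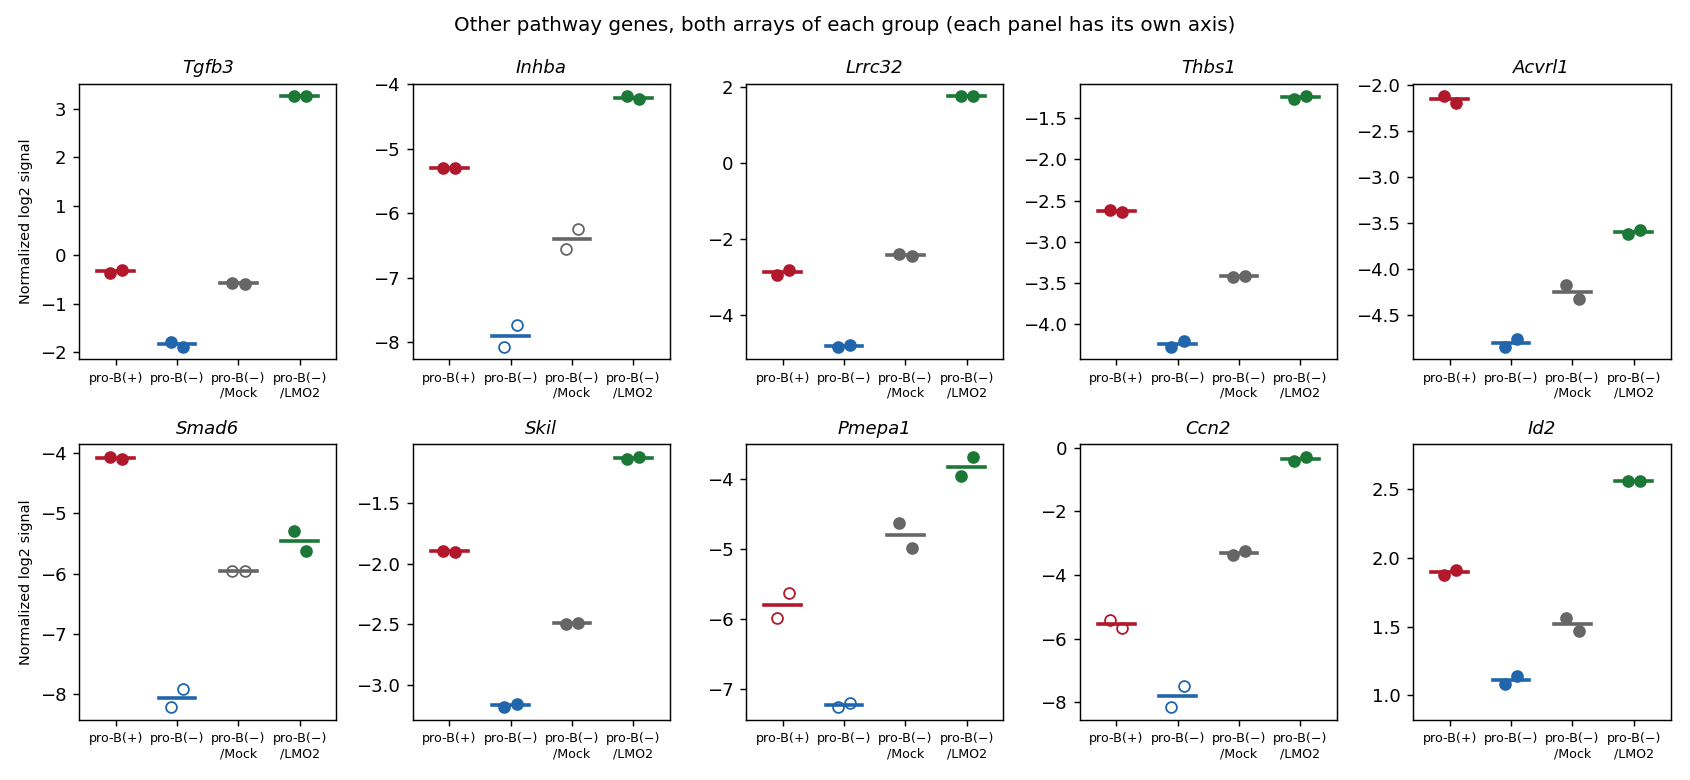
Normalized log2 signal (y axis, a separate range for each gene) of 10 other pathway genes in the 4 groups (x axis), with points for the arrays, lines for the means, and open points where not both arrays of the group were well above background. Tgfb3 and Lrrc32 were highest in pro-B(−)/LMO2, at 3.25 and 1.77 on its first array, whereas Smad6 and Acvrl1 were highest in pro-B(+).

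In pro-B(−)/Mock against pro-B(−), 70 were tested and 45 were called (64.3%, beside 58.1% of all probes tested), 32 higher and 13 lower, with a median of 0.25. Ccn2, Ltbp1 and Pmepa1 were not well above background in pro-B(−) and were at least 5.63-, 2.12- and 1.99-fold higher in pro-B(−)/Mock. These bounds hold for the main processing, since over the other settings the log2 differences were as low as 1.13, 0.53 and 0.43. Gdf15 was higher by 2.51 and Lrrc32 by 2.39 (limma adjusted p up to 0.00172 for these 5 genes). Smad1 was at least 2.07-fold lower, and Tdgf1 (-1.20), the BMP antagonist Nog (-1.02), Gdf9 (-0.98), Gdf1 (-0.80) and Inhbe (-0.73) were lower, with limma adjusted p up to 0.0335. Over the other settings the Smad1 log2 difference ran from -1.53 to -0.08, so its bound depends on the processing. The calls of Smad1 and Inhbe were lost with normexp, and that of Tdgf1 with all probes of a gene averaged. For Gdf9 the result was the same in only 11 of 19 other settings. These differences lie across the slides.

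Whether the first effect differed from the second was tested across all probes, of which 54.1% were called, and 36 of 73 pathway genes tested were called, 15 higher and 21 lower.

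The cultures hold stromal cells, and several of these genes, Tgfbi among them, are also made by such cells or by myeloid cells. Of 22 stromal markers, 17 were tested between the parental lines and 16 were higher in pro-B(+), with none lower. Their summed signal, in multiples of the array's 75th percentile, was 35.3 and 34.8 in pro-B(+), 16.1 and 16.6 in pro-B(−), 34.6 and 35.8 in pro-B(−)/Mock, and 44.6 and 43.4 in pro-B(−)/LMO2. It was lowest in pro-B(−), as were Tgfbi, Id1, Id3, Bmpr1a, Tgfbr1 and Tgfbr2 by their brightest probes. It was highest in pro-B(−)/LMO2, as were Tgfb1, Tgfbr1, Tgfbr2, Smad3 and Smad7 by theirs. The dimmer Tgfbr1 probe was instead lowest in pro-B(−)/Mock and highest in pro-B(+). The summed signal was about as high in pro-B(−)/Mock as in pro-B(+), although single markers differed. Group means in pro-B(+) and pro-B(−)/Mock were -3.72 and -4.55 for Pdgfra, and -3.50 and -5.16 for Fbn1. Col1a1 and Pdgfra were well above background on all arrays, whereas Dcn, Lum, Fap and Col5a2 were not on any. The sum does not give the order of each marker. Fn1 was the brightest in both transductants, at 3.87 and 3.97 in pro-B(−)/Mock and 4.30 on both pro-B(−)/LMO2 arrays. Col1a1, Fn1, Sparc, Acta2 and Tagln were highest in pro-B(−)/LMO2, whereas Pdgfra, Cxcl12, Mmp2, Fbn1 and Col6a1 were highest in pro-B(+). Between the transductants 10 stromal markers were higher and 4 lower of 18 tested, and in pro-B(−)/Mock against pro-B(−) 15 were higher and 1 lower of 18.

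Of 16 myeloid markers with a probe, 13 were called higher and 1 lower between the parental lines, 8 higher and 2 lower of 13 tested between the transductants, and 4 each way of 12 tested in pro-B(−)/Mock against pro-B(−). Their summed signal was 144 and 142 in pro-B(+), and between 79.0 and 92.0 on the other 6 arrays. Csf3r, the brightest of these genes, made up 45.7% to 86.8% of the sum. Without it, an alternative chosen after seeing the data, the sum was 77.0 on both pro-B(+) arrays, between 11.2 and 13.9 on the 4 arrays of pro-B(−) and pro-B(−)/Mock, and 34.8 and 33.2 in pro-B(−)/LMO2. The summed signal of the other myeloid markers was thus higher with Lmo2, as were Smad7, Tgfbr2, Smad3, Id1 and Tgfb1. Bmp7 and Tgfbi were lower with Lmo2. Among the myeloid markers left in the sum, Mpo went from a group mean of -0.41 in pro-B(−)/Mock to 3.97 in pro-B(−)/LMO2. The 2 myeloid markers called lower were Csf3r, the gene left out, by -0.27, and Adgre1, by -1.21. Csf1r stood at 3.65 and 3.66 in pro-B(+) and below 0 on all other arrays. Lyz2 was not well above background in pro-B(−) or pro-B(−)/Mock and stood at -2.61 and -2.80 in pro-B(−)/LMO2. Tgfbi was low in all of these groups other than pro-B(+). The myeloid markers did not share 1 order of groups, and some were high in pro-B(−)/LMO2, where Tgfbi was low. Group means in pro-B(+) and pro-B(−)/LMO2 were 4.01 and 3.97 for Mpo, and -0.19 and 0.69 for Ccr2. Of 16 pro-B markers, 3 were higher and 8 lower between the parental lines, 4 higher and 8 lower between the transductants, and 4 higher and 6 lower in pro-B(−)/Mock against pro-B(−). Igll1 was not well above background in pro-B(+), and Cd79a was not in either transductant. In bulk RNA, fewer cells of a type and less RNA per cell cannot be told apart, and the part of stromal or myeloid RNA in the results above was not tested.

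**Figure D5:**
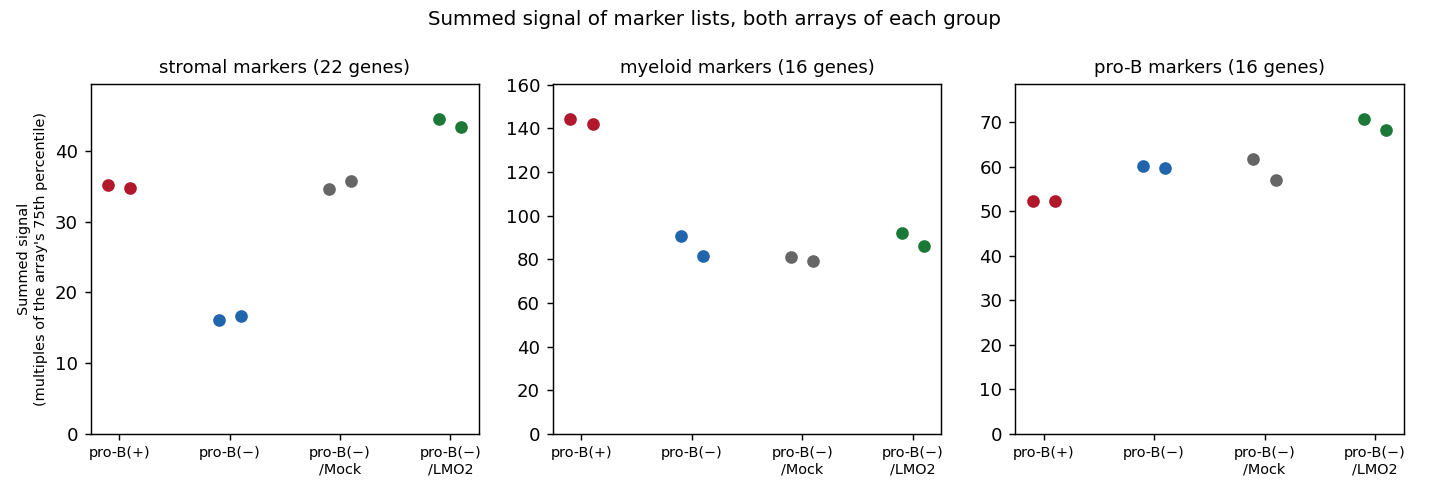
Summed signal of 3 marker lists (y axis, multiples of the array's 75th percentile, from 0) on both arrays of each group (x axis). Stromal markers were lowest in pro-B(−), at 16.1 and 16.6, and myeloid markers were highest in pro-B(+), at 144 and 142.

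The profiles most like those of Tgfbi, Bmp7 and Id1 were sought among 13760 other genes by the root mean square difference of the 4 group means, each centred on its mean. For Tgfbi they were Meis1, Clec10a and Clec4a3, at 0.49, 0.55 and 0.58 log2 units, of which Clec10a and Clec4a3 were well above background in pro-B(+) alone, so that their distances rest on background signal in the other groups. For Bmp7 they were Zfp286, Hnrnpll and Unc5a, at 0.41, 0.45 and 0.48, of which Zfp286 and Unc5a were not well above background in pro-B(−)/LMO2. For Id1 they were Rnd3, Ank and Pparg, at 0.06, 0.09 and 0.10. The group means spanned 3.16 log2 units for Id1, 6.67 for Tgfbi and 5.54 for Bmp7. Since the distance is not scaled to this span, distances are not ranked between the genes. With 4 groups this likeness is a description over 4 means.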

How the data were processed

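Total RNA of the 8 samples was labelled with Cy3 and hybridised to Agilent 4x44K arrays. The authors deposited Agilent Feature Extraction output, in which the processed intensity of a spot is background-subtracted and detrended, and the authors' deposited log2 matrix came from 75th percentile normalization in GeneSpring. Here control spots and outlier spots were left out, log2 intensities of a probe were averaged, and each array was scaled to its 75th percentile (608 to 952). No spot was saturated. Probes were named through accessions in a RefSeq table (67.4% named), and the brightest probe stood for a gene.

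All 8 arrays were fitted with 4 group means (4 residual degrees of freedom) in limma 3.58.1 under R 4.3.3, tested on simulated data. A probe was tested if well above background on both arrays of a compared group. The number of arrays, 2 a group, limits the precision. Named pathway genes were the core SMADs, receptors, Id2, Ski, Skil and Pmepa1, the 6 called with the largest rise and fall per comparison, and the 3 with the largest difference between effects, of which 1 gene is not reported here. The 10 genes, the pathway list and the stromal, myeloid, pro-B and E protein lists were chosen with earlier results of these data known. Other scaling, background correction, filters, variance models, blocks, probe averaging and left-out arrays were tried.

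Where a probe was not well above background on either array of a group, the fold is a bound. The denominator is then averaged over arrays from whichever was higher, the probe's own signal or the dimmest signal among probes well above background. The bound holds for the main processing, and with other settings, normexp among them, the difference of some genes fell below it.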

Additional observations from a re-analysis of the deposited data

Results flagged for a closer look

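These genes moved 1 way on both arrays of pro-B(+) against pro-B(−) and the other way with Lmo2, or were named for the size of the difference between these effects. By limma the difference of effects, in log2, was 3.49 for Smad6 (adjusted p = 9.19e-05), a fitted value that rests on pro-B(−) signals not well above background, -2.34 for Tgfb3 (1.1e-05) and -2.25 for Lrrc32 (1.78e-05). It was 1.95 for Ltbp2 (limma adjusted p = 1.95e-05), 0.59 for Bmp8a (0.00409), -1.03 for Lefty2 (0.00137), -0.99 for Furin (0.00013), -1.50 for Dand5 (3.83e-05) and -1.35 for Cdkn1a (1.62e-05). Smad6, Tgfb3 and Lrrc32 were the largest among genes already called. Ltbp2, Bmp8a, Lefty2, Furin, Dand5 and Cdkn1a were picked out after their values were seen. They were listed because this difference was called and the first and second comparisons were called opposite ways. An adjusted p under 0.05 was thus a condition of entry for all of these genes. A dimmer Cdkn1a probe was lower in both comparisons, by -2.28 and -0.32. The difference was 7.01 for Tgfbi, 5.90 for Bmp7, -0.92 for Smad3 and -1.39 for Smad7, and for these 4 genes it is a description, with no p-value, since they were chosen with these values in view.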

How the results depend on the processing

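The slide block, 1 of 20 other settings, repeats the main fit by construction. Over the 20 settings, 20 of 1837 values for single genes turned sign, 3 of which had been called. Of the others, Tgfb1 between the parental lines was called lower with median scaling, at -0.18, and Smad3 in pro-B(−)/Mock against pro-B(−) was called lower with probes averaged, at -0.35. With median scaling, the calls among pathway genes between the parental lines came to 53, and the Id3 difference between the transductants was -0.0046. With all probes of a gene averaged, the difference of Tdgf1 between the parental lines was 0.018 and that of Tgfbr1 in pro-B(−)/Mock against pro-B(−) was -0.077. The 2 Tgfbr1 probes gave 0.31 and -0.46 in that comparison, and averaging them gave this value. Median scaling moved all differences between the transductants down, their median from -0.04 to -0.25. For Tdgf1 the cause was not tested. Leaving out 1 array gave 7 to 8, 7 to 9 and 7 to 9 of the 10 genes called in the 3 comparisons, and 30 to 35, 36 to 44 and 42 to 46 of the pathway genes, with 34 to 39 for the difference between effects. Without an array compared, calls of Tgfbr1, Id3, Bmp7 and Smad3 were lost as given above, that of Tgfbr1 in pro-B(−)/Mock against pro-B(−) also without pro-B(−)/Mock replicate 1 or pro-B(−) replicate 2, and those of Smad1, Tdgf1, Acvr1b, Tgif2 and Gdf9 without at least 1 array. Bmpr1a and Tgfbr1 were called between the transductants without an array of pro-B(−) or pro-B(+), respectively. The replicate numbers did not pair the arrays (correlations of deviations from -0.03 to 0.05), and with a replicate block 8, 10 and 9 of the 10 genes and 35, 43 and 45 pathway genes were called, with 39 for the difference between effects. Slide is fixed by group, so a slide block adds nothing to the group means, and its values equal the main ones by construction. No slide-block values were taken for pro-B(−)/Mock against pro-B(−), where slide and group cannot be told apart. Signals near background, as for Bmpr1a, limit the fold that can be stated.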
